A study of Mus musculus with 6 samples.

Results

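The genes described here are 10 members of the TGF-beta and activin signalling pathway: the ligands Tgfb1, Tgfb2 and Tgfb3, the activin subunit Inhba, the latency protein Ltbp1, the receptors Tgfbr1, Tgfbr2 and Tgfbr3, and the signal transducers Smad2 and Smad3. They were taken by symbol from a count table of 49671 genes. RNA-seq was made from neurospheres, free-floating aggregates grown with EGF and FGF from neural stem cells (NSCs) of the adult mouse subventricular zone (SVZ), in 6 libraries. The 3 libraries labelled Tet3-Gfap cre come from Tet3 loxp/loxp mice that carry a Gfap-cre transgene, and the 3 labelled Tet3-Gfap control from Tet3 loxp/loxp mice without it. The animals were 2 to 4 months old on a C57BL6 background, and each culture was started from the SVZ of 2 animals. The methods state for culture experiments in general that they were repeated with independent cultures, and do not say so of these libraries, so the spread between them may be technical. Cre was driven by a cassette of the mouse Gfap gene and removes exon 5 of Tet3, a dioxygenase that converts 5-methylcytosine to 5-hydroxymethylcytosine. The counts cover the whole Tet3 gene, not exon 5 alone. The Gfap cassette holds Gfap exons, so reads of the transgene and of Gfap itself cannot be told apart.

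The TGF-beta isoforms are secreted as latent complexes held in the extracellular matrix by latent TGF-beta binding proteins. Once released, TGF-beta binds the type II receptor TGFBR2, which activates the type I receptor TGFBR1, and this kinase phosphorylates SMAD2 and SMAD3. These join SMAD4 and enter the nucleus to regulate transcription. Activins use other receptors and the same SMAD2 and SMAD3. In the adult SVZ, TGF-beta is known mainly as a signal that slows the division of stem and progenitor cells.

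Tet3 was at 61.3, 60.5 and 116 CPM (counts scaled to library depth) in the libraries labelled cre 1, 2 and 3. In the control libraries 1, 2 and 3, by their labels, it was at 114, 136 and 60.3 CPM. The library labelled cre 3 was therefore at the level of control 1 and 2, and the library labelled control 3 at the level of cre 1 and 2, against their labels. Gfap was split the same way, at 3.84, 3.52 and 0.280 CPM in the libraries labelled cre, against 0.503, 0.327 and 6.62 CPM in those labelled control. The members are thus given by the labels, over all 6 libraries, and again over the 4 libraries labelled cre 1, cre 2, control 1 and control 2. Total counts ran from 29660398 to 35405326 per library. All 5 of the neural stem and progenitor markers examined (Sox2, Nes, Vim, Egfr and Fabp7) were above 1 CPM in every library, with a summed level of 7030.3 to 7723 CPM in the libraries labelled cre and 7551 to 8640.0 CPM in those labelled control. Summed levels were at most 1.50 CPM for the 6 microglia and macrophage markers and at most 3.42 CPM for the 5 endothelial markers.

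Of the 10 genes, Smad3 was the one that passed the test. It did so in the 4 libraries and not by the labels, and rose there 1.69-fold in Tet3-Gfap cre neurospheres (adjusted p = 0.0425, edgeR). By the labels none passed, and the smallest adjusted p among the members was 1.00. Tgfb1, Tgfb2, Tgfb3, Tgfbr1 and Ltbp1 had groups that did not overlap in the 4 libraries without passing the test. Of all genes tested, 20.4% did not overlap with cre higher there and 20.2% with cre lower. Smad2 and Tgfbr2 had fold changes of 0.977 and 0.958 in these libraries. Inhba was at the limit of detection.

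The counts measure RNA and hold no methylation values. The paper reports no change in global methylated or hydroxymethylated cytosine in Tet3-Gfap cre neurospheres. It also reports none at the promoter region of the imprinted gene Snrpn. The repression of Snrpn is attributed there to an action of TET3 that does not need its catalytic activity. Methylation at the genes described here was not tested. Because the deleted enzyme acts on methylated cytosine, found mostly where C is followed by G (CpG), the RefSeq promoter windows (GRCm38.p6, 250 bases before to 50 after the start site) of the called member and of the member ligand with the highest level are printed with each CpG in capitals. Smad3 lies on the minus strand of chromosome 9, and its window is chr9:63757945-63758244.

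Smad3 promoter: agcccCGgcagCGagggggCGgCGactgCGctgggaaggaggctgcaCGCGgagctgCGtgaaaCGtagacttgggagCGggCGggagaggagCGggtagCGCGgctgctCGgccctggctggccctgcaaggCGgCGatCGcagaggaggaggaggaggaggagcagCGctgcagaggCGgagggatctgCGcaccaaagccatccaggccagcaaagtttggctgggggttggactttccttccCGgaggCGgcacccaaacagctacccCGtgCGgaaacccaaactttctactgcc

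Tgfb2 lies on the minus strand of chromosome 1, and its window is chr1:186705940-186706239.

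Tgfb2 promoter: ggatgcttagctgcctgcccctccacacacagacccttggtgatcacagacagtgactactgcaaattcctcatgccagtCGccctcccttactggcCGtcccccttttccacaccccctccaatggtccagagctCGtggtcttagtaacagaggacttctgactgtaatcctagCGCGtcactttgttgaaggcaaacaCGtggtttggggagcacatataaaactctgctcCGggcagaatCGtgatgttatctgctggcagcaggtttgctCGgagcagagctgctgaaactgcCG

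The Smad3 window held 25 CpG, a number reached or passed by 18.4% of all 32851 mouse promoter windows, and the Tgfb2 window held 10, reached or passed by 43.5%. Windows of 7 members were read, and those of Smad2, Tgfb3 and Tgfbr3 were not. Among these 7, the count went from 7 CpG for Inhba to 34 for Tgfbr1 at their first start sites. The second windows of Tgfbr1 and Ltbp1 held 3 and 7. Motifs were searched on both strands, and positions are those of the first base in the printed strand, with the start site as 1. The GC box GGGCGG was found in the Smad3 window 2 times, at -234 and -171, and not in the Tgfb2 window, against 35.7% of all windows with at least 1 match. The Tgfb2 window held a TATA box, TATAAA, at -31 (13.6% of all windows), an E-box, CACGTG, at -51 (7.15% of all windows), and 2 copies of CAGAC, the core of the Smad-binding element, at -221 and -204 (49.6% of all windows). None of these 3 motifs was found in the Smad3 window.

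**Figure D1:**
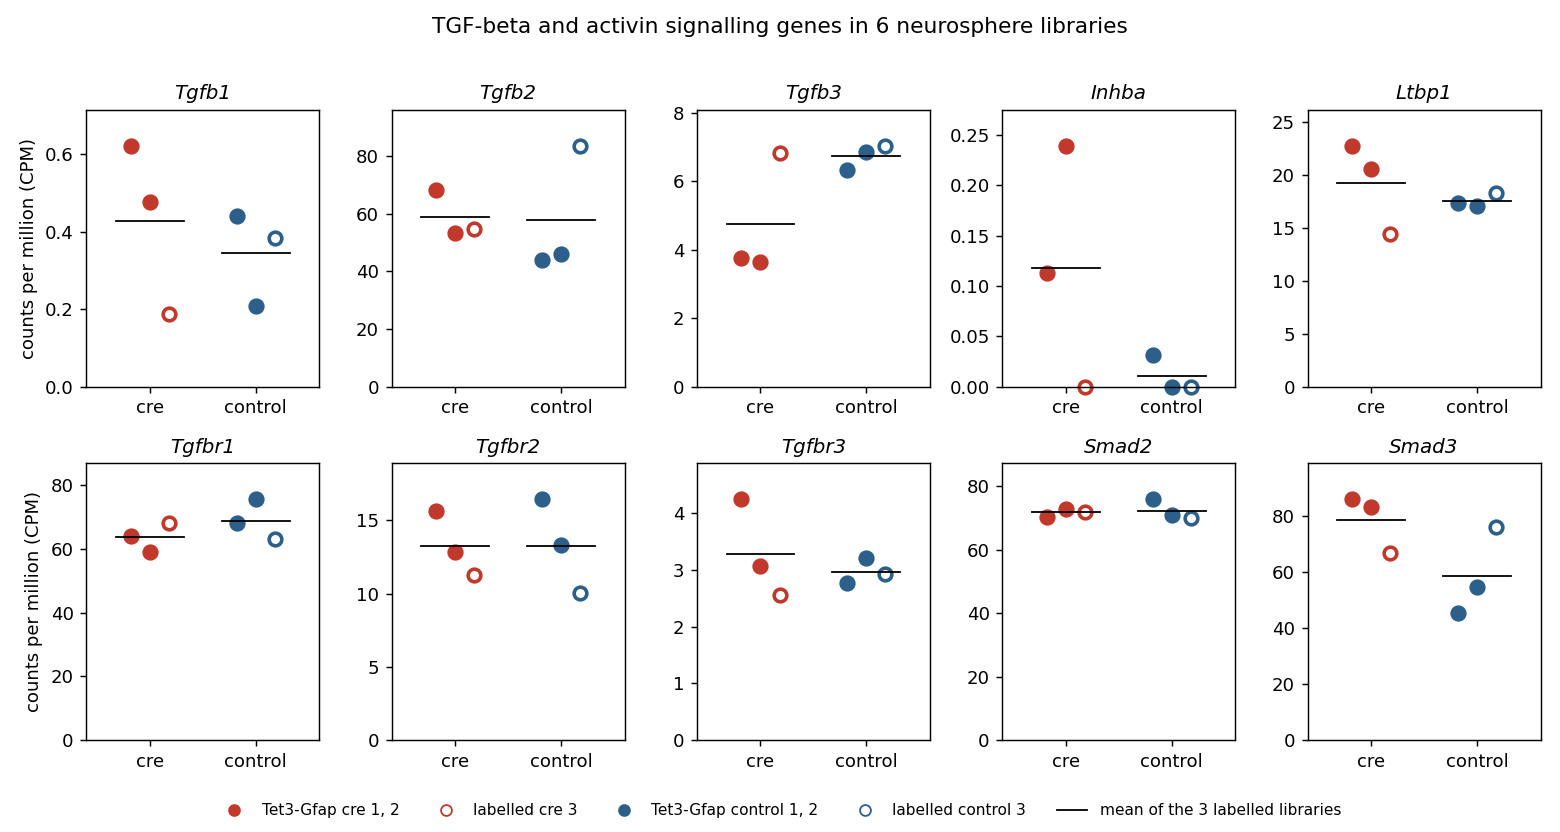
CPM of each of the 10 genes in the 6 libraries, with the libraries labelled cre on the left and control on the right, each panel on its own scale from 0. Open circles are the libraries labelled cre 3 and control 3, and bars are the mean of the 3 libraries of a label. Smad3 is at 85.8 and 83.1 CPM in cre 1 and 2 against 45.4 and 54.5 CPM in control 1 and 2, with both open circles between these pairs.

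Among the 4 ligand genes of the members, Tgfb2 (chr1:186622792-186705989) had the highest level per kb of exon. Its level was 68.4, 53.4 and 54.7 CPM in the libraries labelled cre 1, 2 and 3, against 44.0, 46.0 and 83.6 CPM in those labelled control. The highest and the lowest value were both in libraries labelled control. By the labels the fold change was 1.02 (log2 0.02 ± 0.25 SE, adjusted p = 1.00). In the 4 libraries, where both cre values lay above both control values, it was 1.35-fold (log2 0.44 ± 0.12, adjusted p = 0.229). Without cre 1 the log2 value was 0.24, and without cre 2, which leaves cre 1 as the only cre library, it was 0.60. With no filter on low counts Tgfb2 passed in the 4 libraries (log2 0.43, adjusted p = 0.000644, edgeR quasi-likelihood test), where 1325 genes passed in all.

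Tgfb3 (chr12:86056745-86079041) was at 3.76, 3.65 and 6.84 CPM in the libraries labelled cre, against 6.31, 6.86 and 7.03 CPM in those labelled control. The library labelled cre 3 was at the level of the control libraries, and the other two libraries labelled cre stood apart from the rest. The log2 fold change was -0.50 ± 0.25 by the labels (adjusted p = 1.00). In the 4 libraries it was -0.83 ± 0.18, or 0.562-fold, and missed the threshold (adjusted p = 0.127), although the 95% interval of -1.25 to -0.41 lay below 0. Tgfb3 did pass with edgeR's likelihood-ratio test (adjusted p = 0.0174) and its exact test (adjusted p = 0.0201) in these libraries. Genes on the other strand, Gm37804 and Gm48008, overlap 12.4% of its exonic bases, and the strand setting of the counting is not stated.

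Tgfb1 (chr7:25687002-25705077), the isoform best known from immune and endothelial cells, was barely detected. It had 22, 14 and 6 counts in the libraries labelled cre, against 14, 7 and 13 counts in those labelled control. At this depth its log2 fold change had a 95% interval of -0.85 to 1.50 by the labels and of -0.49 to 2.03 in the 4 libraries, so that changes of either sign could not be told from none. Inhba (chr13:16011851-16031621), whose product forms activin A as a homodimer, had 4, 7 and 0 counts in the libraries labelled cre, against 1, 0 and 0 in those labelled control. It was the one member that did not pass the filter on low counts and was not tested, and 3 of its 6 libraries had no count, which allows a level of up to 0.0932 CPM in cre 3 and 0.0891 and 0.0886 CPM in control 2 and control 3.

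Ltbp1 (chr17:75005568-75392512), which binds latent TGF-beta to the matrix, was at 22.7, 20.6 and 14.4 CPM in the libraries labelled cre, against 17.3, 17.1 and 18.3 CPM in those labelled control. The 3 control values lay close together, with cre 1 and cre 2 above them and cre 3 below. The log2 fold change was 0.13 ± 0.16 over all 6 (adjusted p = 1.00). Over 4 libraries it was 0.33 ± 0.11, a 1.26-fold difference that missed the threshold (adjusted p = 0.296).

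The type I receptor gene Tgfbr1 (chr4:47353222-47414931) was at 64.0, 58.9 and 68.3 CPM in the libraries labelled cre, against 68.2, 75.6 and 63.1 CPM in those labelled control. Its values overlapped between the labels, and in the 4 libraries both cre values lay below both control values. The log2 fold change was -0.11 ± 0.09 by the labels and -0.23 ± 0.09 in the 4 libraries (adjusted p = 1.00 and 0.394). Tgfbr2 (chr9:116084293-116175360), the type II receptor, was at 15.7, 12.8 and 11.3 CPM in the libraries labelled cre, against 16.4, 13.3 and 10.04 CPM in those labelled control. The values of the groups covered nearly the same range. Their log2 difference was -0.06 in the 4 libraries with a 95% interval of -0.44 to 0.31, and by the labels the interval was -0.46 to 0.46.

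Tgfbr3 (chr5:107106570-107289629), a co-receptor also called betaglycan that presents TGF-beta2 to TGFBR2 and binds inhibin, was at 4.24, 3.07 and 2.55 CPM in the libraries labelled cre, against 2.76, 3.21 and 2.92 CPM in those labelled control. All control values fell inside the range of the cre values, and the fold change did not pass in either comparison (log2 0.15 ± 0.22 with all 6 libraries, adjusted p = 1.00, and 0.29 ± 0.25 with 4, adjusted p = 0.776). A gene on the same strand, Gm43422, shares 4.54% of its exonic bases.

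Smad2 (chr18:76241580-76310963) had the narrowest spread relative to its mean among the members. It was at 70.4, 72.9 and 71.9 CPM in the libraries labelled cre, against 75.8, 70.9 and 70.0 CPM in those labelled control. The log2 fold change was -0.01 by the labels with a 95% interval of -0.15 to 0.13, and -0.03 in the 4 libraries with an interval of -0.21 to 0.14.

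Smad3 (chr9:63646767-63757994), the DNA-binding partner of SMAD2 in the pathway, was at 85.8, 83.1 and 66.8 CPM in the libraries labelled cre, against 45.4, 54.5 and 76.0 CPM in those labelled control. The 3 libraries with the lowest Tet3 (cre 1, cre 2 and the library labelled control 3) were the 3 with the highest Smad3. The 4 libraries were kept because of their Tet3, and Smad3 was called for its rise in cre 1 and 2 there. Most of this order was therefore given beforehand, and only the libraries labelled cre 3 and control 3 were free to differ. The share of all genes that split the libraries this way is not given, and a link to Tet3 was not tested. Smad3 in the libraries labelled cre 3 and control 3 lay between its levels in cre 1 and 2 and in control 1 and 2. By the labels the groups overlapped and the log2 fold change of 0.42 ± 0.19 did not pass (adjusted p = 1.00). In the 4 libraries it was 0.76 ± 0.10, a 1.69-fold rise with a 95% interval of 0.52 to 1.00 on the log2 scale (adjusted p = 0.0425, 2 libraries a group). This value is close to the threshold. It was past it with DESeq2, limma-voom and the other edgeR tests, and missed it with library size as the only scaling (adjusted p = 0.0523), without cre 1 (0.0794) and without control 1 (0.0756), with log2 values of 0.75, 0.73 and 0.63. In bulk RNA a rise in Smad3 per cell and a larger share of cells that express it cannot be told apart. Gfap was high in the same 3 libraries. The summed level of the 6 astrocyte markers, Gfap among them, was 1114, 1545 and 1507 CPM in the libraries labelled cre, against 2338, 1566 and 1309 CPM in those labelled control. Most of that sum was Slc1a3, at 825, 997 and 920 CPM in the libraries labelled cre, against 1624, 961 and 697 CPM in those labelled control. The part of astrocytes in the values of Smad3 was not tested.

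Over all genes, 36 rose (0.212% of 17003 tested) and 42 fell (0.247%) in the 4 libraries, and 1 of the 9 members tested rose and 0 fell. By the labels 0 of 16916 genes passed in either direction (0%) with edgeR's quasi-likelihood test, among them 0 of the 9 members tested, while 846 genes and 0 members had an unadjusted p under 0.05. In the 4 libraries 1910 genes and 5 of the 9 members had one. The other tests called 0.414% (DESeq2), 0.301% (likelihood-ratio test) and 0.29% (exact test) of all genes by the labels, and no member. In the 4 libraries they called 3.05%, 3.66% and 3.45% of all genes, and 1, 2 and 2 of the members: Smad3 with each of them and Tgfb3 with both edgeR tests. The groups of 4 members (44.4%) did not overlap with cre higher in the 4 libraries, against 20.4% of all genes, and those of 2 members (22.2%) with cre lower, against 20.2%. By the labels this held for no member, against 4.81% of all genes with cre higher and 4.66% with cre lower. The median log2 fold change of the members tested was 0.29 in the 4 libraries and 0.02 by the labels, where the median of all genes tested was -0.00054 and -0.0050.

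**Figure D2:**
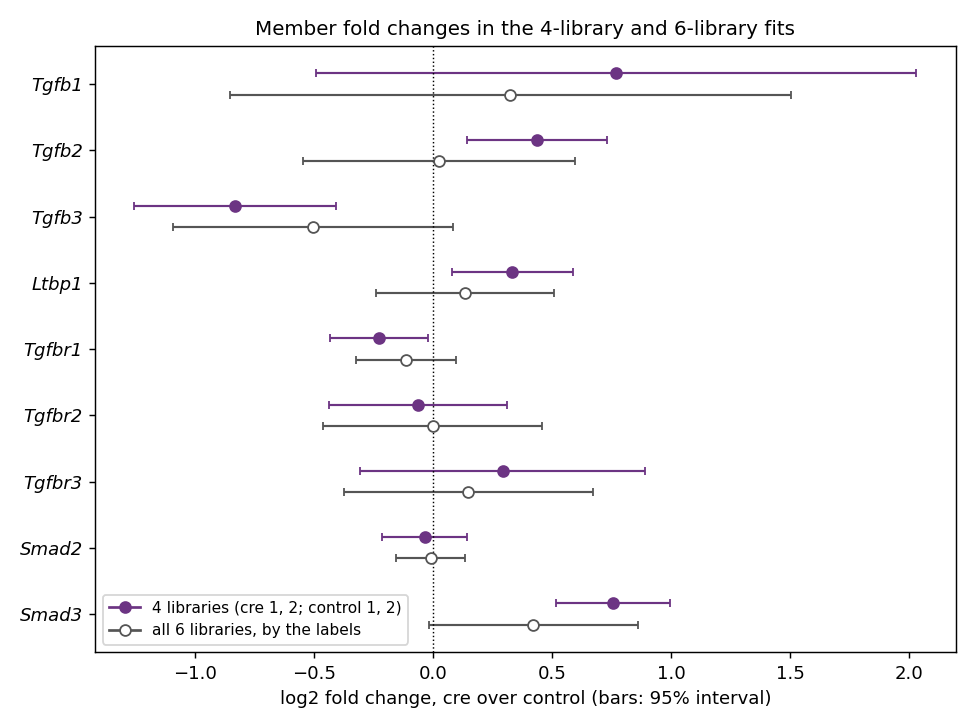
Log2 fold change (cre over control) of the 9 members tested, with 95% intervals, in the 4 libraries (filled) and in all 6 by the labels (open). Smad3 is at 0.76 in the 4 libraries and 0.42 by the labels, and Tgfb3 at -0.83 and -0.50, while Smad2 and Tgfbr2 are within 0.1 of 0 in both.

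Scaled by exonic length, the members fell into tiers that spanned more than 3 orders of magnitude. Smad3 had the highest level, with 12.4 ± 2.91 CPM per kb over the 6 libraries (SD), and was followed by Tgfbr1 (10.2 ± 0.873), Tgfb2 (10.1 ± 2.60) and Smad2 (8.20 ± 0.246). The ranges of these neighbours overlapped, so their order was not fixed: Smad3 was above Tgfbr1 in 4 of the 6 libraries and Tgfbr1 above Tgfb2 in 3. Ltbp1 (1.72 ± 0.272), Tgfb3 (1.70 ± 0.472) and Tgfbr2 (1.62 ± 0.300) formed a middle tier, also with overlapping ranges, that lay below Smad2 in all 6 libraries. Tgfbr3 (0.478 ± 0.0904) and Tgfb1 (0.0766 ± 0.0330) were each below the member before them in all 6 libraries. Inhba was lowest, at 0.0100 ± 0.0151 CPM per kb, with a range that touched that of Tgfb1. Tgfb2 thus made up most of the TGF-beta ligand RNA in every library.

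**Figure D3:**
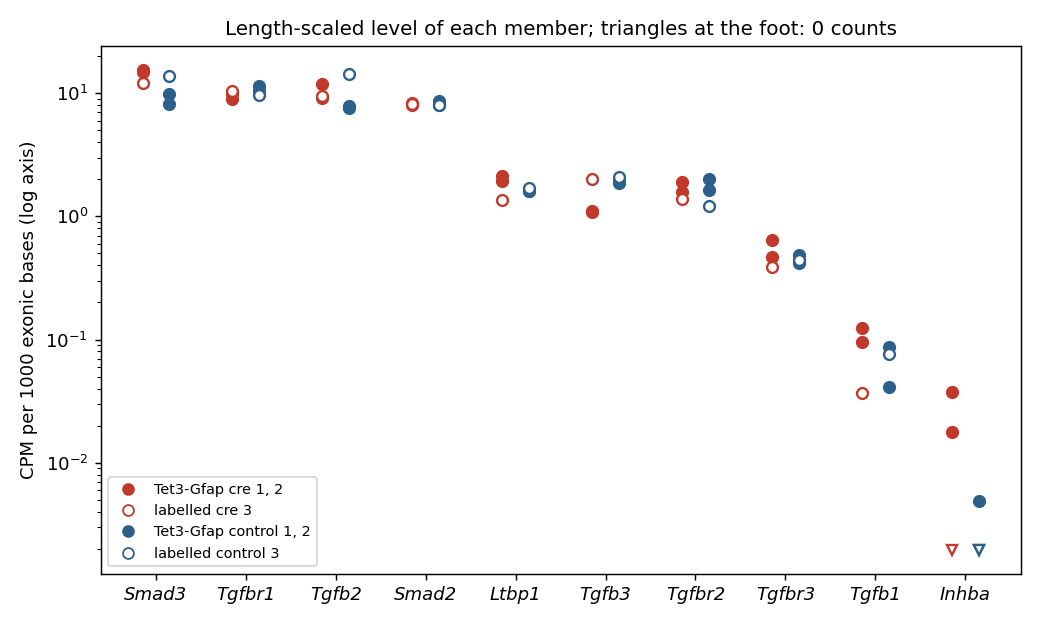
CPM per kb of exon of each member in the 6 libraries on a log axis, ordered by the mean, with libraries labelled cre to the left of those labelled control. Smad3, Tgfbr1, Tgfb2 and Smad2 average 8.20 to 12.4, Ltbp1, Tgfb3 and Tgfbr2 average 1.62 to 1.72, and Inhba averages 0.0100 with triangles for libraries that had 0 counts.

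The rest of the pathway was read from a list of 60 genes in 6 roles, of which 39 had enough counts to be tested. None passed with the quasi-likelihood test in either comparison. The smallest adjusted p was 0.523 by the labels and 0.0859 in the 4 libraries, and the median log2 fold change was 0.05 and 0.07. Unadjusted p values under 0.05 were found for 3 of these 39 genes by the labels, against 846 of all 16916, and for 8 of 39 in the 4 libraries, against 1910 of all 17003. By the labels, the groups of 2 of the 39 (5.13%) did not overlap with cre higher, and those of 1 (2.56%) with cre lower. These shares were near those of all genes, 4.81% and 4.66%.

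Of the other ligands, 3 of 9 were tested. Gdf11, a relative of myostatin that signals through SMAD2 and SMAD3, was the highest per kb of exon, at 84.0, 82.5 and 82.1 CPM in the libraries labelled cre, against 112, 110 and 90.8 CPM in those labelled control. All 3 cre values lay below all 3 control values, as in 4.66% of all genes tested. The log2 fold change was -0.33 ± 0.09 over all 6 (adjusted p = 0.810). Over 4 libraries it was -0.42 ± 0.07 (adjusted p = 0.0859). Inhbb, the subunit of activin B, was at 24.0, 23.0 and 32.4 CPM in the libraries labelled cre, against 13.9, 19.5 and 28.9 CPM in those labelled control, and so was the activin subunit present in these cells while Inhba was near 0. Its highest values under each label were those of the libraries labelled cre 3 and control 3, and the log2 fold change was 0.35 ± 0.26 over all 6 (adjusted p = 1.00) and 0.49 ± 0.16 over 4 (adjusted p = 0.314). Nodal, Gdf1 and Gdf3 had 0 counts in all 6 libraries.

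Of 11 genes for latency and activation, 9 were tested. Itgav and Itgb8, whose products form the integrin that releases TGF-beta from its latent complex, were the highest per kb of exon. Itgb8 was at 261, 293 and 275 CPM in the libraries labelled cre, against 220, 245 and 245 CPM in those labelled control, without overlap, and missed the threshold (log2 0.23 ± 0.07 over all 6, adjusted p = 0.894, and 0.25 ± 0.09 over 4, adjusted p = 0.365). Itgav was at 313, 295 and 286 CPM, against 254, 266 and 292 CPM, with log2 fold changes of 0.14 over all 6 (adjusted p = 1.00) and 0.22 over 4 (adjusted p = 0.332). Of 7 receptors and co-receptors, 4 were tested. The activin receptors Acvr2a (39.6, 36.7 and 35.7 CPM in libraries labelled cre, 38.3, 34.5 and 36.2 CPM in those labelled control) and Acvr1b (26.8, 25.9 and 26.8 CPM, against 22.7, 26.8 and 24.8 CPM) overlapped between the groups.

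Of 7 SMAD partners and cofactors, 6 were tested, with log2 fold changes of -0.10 to 0.09 by the labels and of -0.34 to 0.09 in the 4 libraries. Smad4, the common partner of SMAD2 and SMAD3, was at 89.0, 91.2 and 89.3 CPM in the libraries labelled cre, against 97.4, 90.2 and 89.9 CPM in those labelled control. Ski, a corepressor that binds the SMADs, was at 160, 149 and 140 CPM, against 159, 150 and 149 CPM. Of 13 inhibitors, 9 were tested. Smurf1 and Smurf2, ubiquitin ligases that mark receptors and SMADs for degradation, were at 70.5 to 79.2 CPM and 73.1 to 78.8 CPM in the libraries labelled cre, against 69.2 to 76.7 CPM and 72.3 to 76.0 CPM in those labelled control. Smad7, the inhibitory SMAD that is itself induced by TGF-beta, was low, at 1.36, 1.02 and 1.27 CPM, against 1.32, 1.13 and 1.39 CPM.

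Of 13 genes known as TGF-beta targets in other cells, 8 were tested, 7 with a positive log2 fold change in the 4 libraries and 6 by the labels, where 8472 of 17003 and 8182 of 16916 of all genes had one. Cdkn2b, which encodes the cell cycle inhibitor p15, was at 15.5, 17.0 and 13.5 CPM in the libraries labelled cre, against 8.04, 10.7 and 8.06 CPM in those labelled control. The groups did not overlap, also with the libraries labelled cre 3 and control 3, as in 4.81% of all genes tested with cre higher. The log2 fold change was 0.78 ± 0.15 by the labels and 0.79 ± 0.16 in the 4 libraries. It missed the threshold of the quasi-likelihood test in both (adjusted p = 0.523 and 0.122), while DESeq2 and the likelihood-ratio and exact tests of edgeR called it in both. Cdkn1a, which encodes p21, was at 548, 471 and 366 CPM in the libraries labelled cre, against 393, 477 and 571 CPM in those labelled control, with the extremes in the libraries labelled cre 3 and control 3.

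Named after their values were seen, Col1a1, Col1a2 and Dcn were at 5.40, 5.51 and 4.72 CPM in cre 1 and at most 0.650, 0.126 and 0.137 CPM in the other libraries. The fibroblast markers Col3a1 and Dpt moved with them, at 9.21 and 2.18 CPM in cre 1 and at most 0.354 and 0.0314 CPM elsewhere. Pdgfrb, Rgs5 and Lum of the mural and fibroblast list were low and also highest in cre 1, at 0.678, 0.763 and 0.283 CPM. In the other libraries they were at most 0.283, 0.408 and 0.0886 CPM. Most of the summed level of the 6 genes of this list was Cspg4, which oligodendrocyte progenitors also express. The sum was 206, 188 and 112 CPM in the libraries labelled cre, against 139, 155 and 156 CPM in those labelled control. Among the members, Smad3, Ltbp1, Tgfbr3 and Tgfb1 were also highest in cre 1, and Tgfb2, Tgfbr2 and Inhba second highest. Tgfbr1, Tgfb3 and Smad2 were not, at 64.0, 3.76 and 70.4 CPM in cre 1, in the lower part of their values. Their highest values were 75.6, 7.03 and 75.8 CPM, all in libraries labelled control. The share of all genes that were highest in cre 1 is not given. Without cre 1 the log2 fold change of Smad3 in the other 3 of the 4 libraries was 0.73, with an adjusted p of 0.0794 that missed the threshold. The part of such cells in the values of the members was not tested.

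**Figure D4:**
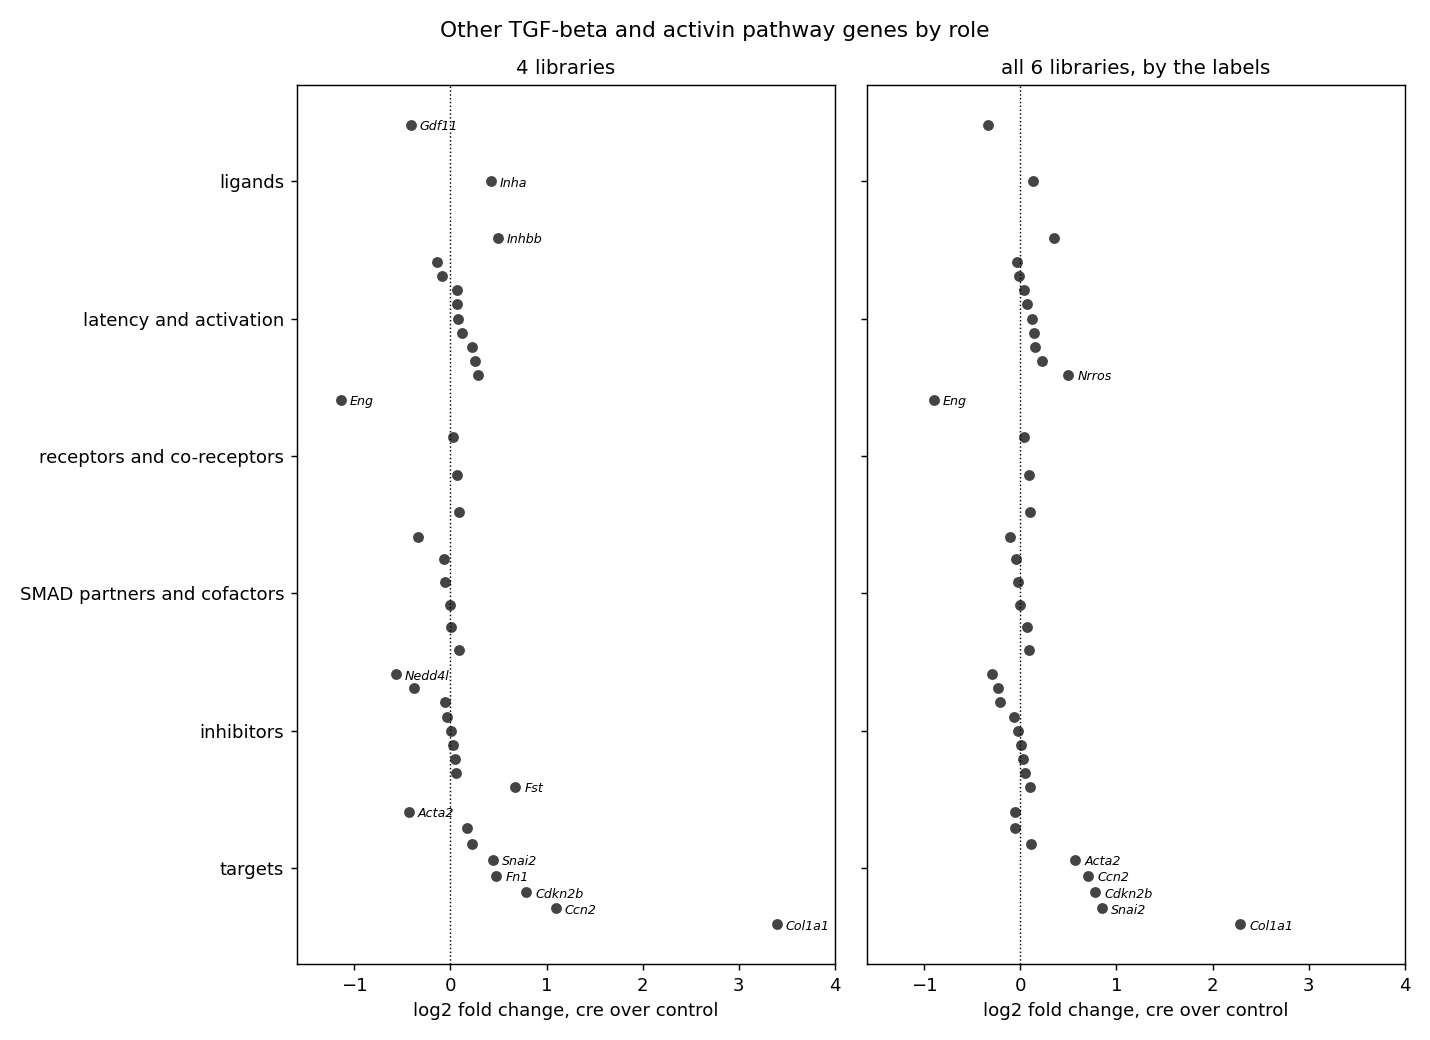
Log2 fold change (cre over control) of the 39 other pathway genes tested, by role, in the 4 libraries and in all 6 by the labels; each point is a gene and those beyond 0.4 are named. Gdf11 is at -0.42 and Cdkn2b at 0.79 in the 4 libraries, and Col1a1, with counts mostly in cre 1, is the farthest to the right.

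The genes whose levels were most like those of Smad3 over the 6 libraries, by the root mean square distance of log2 CPM centred on each gene's mean, were Rundc3a (0.0381) and Elmo1 (0.0480), where the median distance of all genes tested was 0.363. Rundc3a was at 72.2, 76.1 and 58.9 CPM in the libraries labelled cre, against 39.4, 48.1 and 65.4 CPM in those labelled control. Like Smad3, both were highest in cre 1 and cre 2, lowest in control 1 and control 2, and intermediate in the libraries labelled cre 3 and control 3. They share libraries and depth with Smad3, and the likeness is a description.

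**Figure D5:**
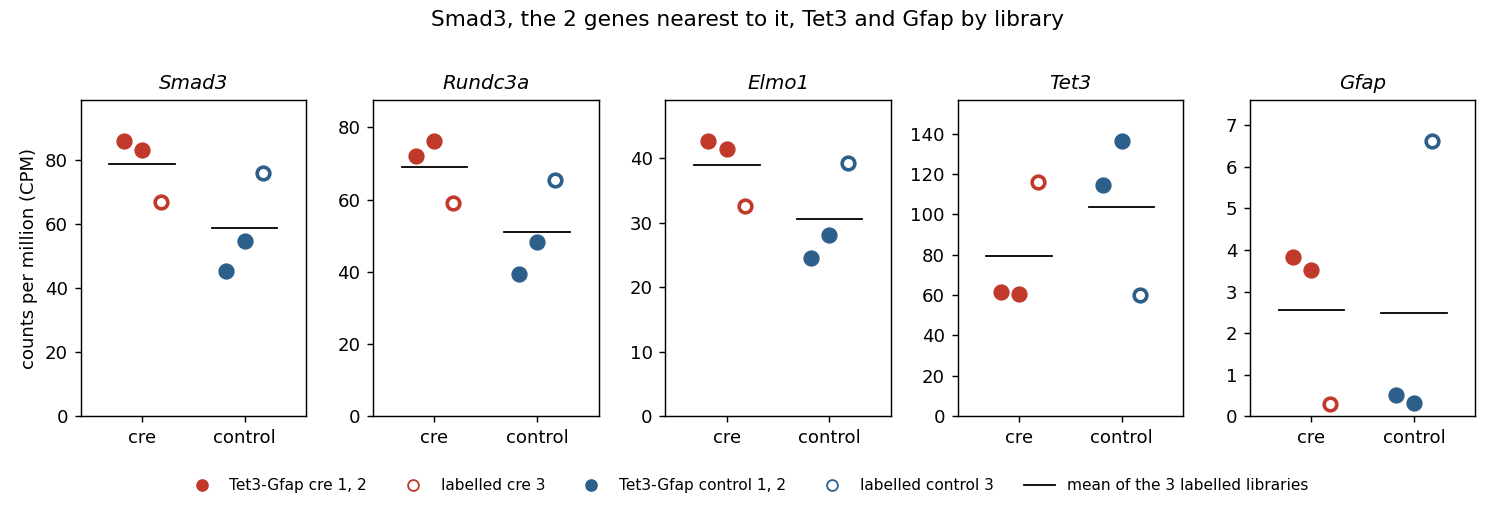
CPM of Smad3, of the 2 genes nearest to it, and of Tet3 and Gfap in the 6 libraries, with libraries labelled cre to the left of those labelled control and bars at the mean of each label. In Smad3 and its 2 neighbours the open circles lie between the filled pairs, whereas in Tet3 the library labelled cre 3 is at 116 CPM and the library labelled control 3 at 60.3 CPM.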

How the data were processed

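RNA was measured by stranded mRNA sequencing in 6 neurosphere libraries. Per the submitters' notes and methods, the authors used Subread for alignment to GRCm38.p5, and deposited raw counts for each gene of Ensembl's GRCm38.87 annotation that were obtained with Rsubread. The counts carry no normalization. Tool versions and the strand, multi-mapping and overlap settings are not given in the sources used here.

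From the counts, edgeR 4.0.16 in R 4.3.3 was run with TMM normalization, filterByExpr and the quasi-likelihood test on genotype over the whole table. The p-values were adjusted after Benjamini-Hochberg and read at 0.05. Libraries were grouped by their labels, and again without the libraries labelled cre 3 and control 3. CPM use TMM-scaled library sizes. Standard errors are the log2 fold change divided by the root of the F statistic, and 95% intervals use its degrees of freedom. A level without counts is bounded by 3 counts per library. Alternatives were DESeq2 1.42.0, the edgeR likelihood-ratio and exact tests, limma-voom (limma 3.58.1), RLE or library size scaling, no filter, at least 1 CPM, a replicate block and leaving out each library. Scripts were tested on simulated data.

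Members, lists and the 4-library comparison were chosen with earlier results of these data known. Text names all members, the 2 pathway genes per role with the highest length-scaled level, those past the threshold, and the genes nearest to a called member, where some genes are not reported here; Nedd4l, Smad7, Nodal, Gdf1, Gdf3, Col1a1, Col1a2, Dcn and Tgfbi were added after their values were seen. Coordinates and exonic lengths come from GENCODE (GRCm38) and promoters from RefSeq.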

Additional observations from a re-analysis of the deposited data

How the results depend on the processing

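By the labels, genes past the threshold numbered 0, and 70 with DESeq2, 51 with the likelihood-ratio test, 49 with the exact test, 3 with no filter and 0 to 18 with 1 library left out (18 without the library labelled control 3). Other pathway genes numbered 0, and 1 (Cdkn2b) with each of these 3 tests. No alternative by the labels called a member. In the 4 libraries the 78 genes became 478, 622 and 586 with these 3 tests, 1325 with no filter, and 59 to 297 with 1 library left out (297 without cre 2, 246 without control 2). Members called numbered 1, and 2 with the likelihood-ratio and exact tests (Smad3 and Tgfb3), 3 with no filter (also Tgfb2), 0 with library size as the only scaling, and 0 to 2 with 1 library left out: 0 without cre 1 or control 1, 2 without cre 2 (Smad3 and Tgfb2). Other pathway genes called numbered 0, and 3 with each of the 3 tests (Cdkn2b, Gdf11 and Nedd4l), 9 with no filter, and 0 to 4 with 1 library left out (4 without cre 2: Col1a1, Col1a2, Dcn and Tgfbi). The cause of these differences was not tested. A fit that leaves 1 library in a group assumes that it varies like the other group.

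Libraries with the same number did not deviate together from the group means by the labels (correlations of -0.083, 0.065 and -0.015). These means hold the libraries labelled cre 3 and control 3, so the check cannot exclude a pairing by number. With the replicate block, 0 genes passed by the labels and 169 in the 4 libraries, where Smad3 remained the 1 member called (log2 0.76, adjusted p = 0.0255). Smad3 kept its sign in all 13 alternatives in the 4 libraries and all 15 by the labels, as did Tgfb3 and Tgfbr1. These alternatives share libraries and are not independent. Depth limits Tgfb1 and Inhba, which had at most 22 and 7 counts.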
